A study of Mus musculus with 24 samples.

Results

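The small leucine-rich proteoglycans are secreted matrix proteins built around a solenoid of leucine-rich repeats. The 9 members described here were chosen by gene symbol: Dcn, Bgn, Aspn, Lum, Fmod, Prelp, Omd, Ogn and Podn. All 9 were among the 18892 genes of the FPKM table, and all 9 passed the filter on low values. Poly(A) RNA from mouse skin was sequenced in 24 libraries, 1 per mouse, with 4 mice in each of 6 groups. Treatment mice were injected daily with dihydrotestosterone (DHT, a potent androgen) and had an extract of the Hanlianxiang (HLX) formula put on the skin. Model mice had the DHT injections with solvent on the skin, and control mice had saline injections with solvent on the skin. Skin was taken at day 10 or day 15 of this regimen. Strain, sex, age, doses and skin site are not given in the labels.

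Members of the family bind collagen fibrils and shape how fibrils grow and pack. Several also hold growth factors such as transforming growth factor beta away from or close to their receptors, and fragments of decorin and biglycan are sensed by cell surface receptors. Dermal fibroblasts are a main source of these proteins in skin. Decorin (Dcn), biglycan (Bgn) and asporin (Aspn) form class I, in which decorin and biglycan carry chondroitin or dermatan sulfate and asporin carries an aspartate-rich tract. Lumican (Lum), fibromodulin (Fmod), Prelp and osteomodulin (Omd) form class II, in which lumican and fibromodulin carry keratan sulfate and fibromodulin and osteomodulin sulfated tyrosines. Osteoglycin (Ogn, also called mimecan) belongs to class III, and podocan (Podn), first described in the kidney glomerulus, to class V.

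In the RefSeq gene order of build GRCm38.p6, Aspn, Omd and Ogn follow each other on chromosome 13 between Ecm2 and Nol8. Dcn and Lum are neighbours on chromosome 10, Prelp and Fmod on chromosome 1, while Bgn lies on chromosome X and Podn on chromosome 4. The 3 chromosome 13 genes are shown with their promoters because all 3 were lower in treatment than in model skin at day 15. Each run is the 250 bases before the annotated start, 5′ to 3′ on the coding strand, from RefSeq (GRCm38.p6), with matches to TATAAA on either strand in capitals (the Omd window held none).
Aspn (chr13:49544193-49544442, + strand): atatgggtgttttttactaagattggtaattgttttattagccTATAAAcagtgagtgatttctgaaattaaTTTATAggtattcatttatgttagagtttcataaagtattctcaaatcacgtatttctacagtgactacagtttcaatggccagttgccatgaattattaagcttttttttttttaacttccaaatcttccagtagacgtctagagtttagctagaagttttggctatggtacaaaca
Omd (chr13:49582212-49582461, + strand): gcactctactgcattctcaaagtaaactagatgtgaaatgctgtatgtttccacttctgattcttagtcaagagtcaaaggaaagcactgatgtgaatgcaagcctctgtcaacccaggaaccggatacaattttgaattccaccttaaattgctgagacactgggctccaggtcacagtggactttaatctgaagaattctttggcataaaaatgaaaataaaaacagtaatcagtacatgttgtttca
Ogn (chr13:49607765-49608014, + strand): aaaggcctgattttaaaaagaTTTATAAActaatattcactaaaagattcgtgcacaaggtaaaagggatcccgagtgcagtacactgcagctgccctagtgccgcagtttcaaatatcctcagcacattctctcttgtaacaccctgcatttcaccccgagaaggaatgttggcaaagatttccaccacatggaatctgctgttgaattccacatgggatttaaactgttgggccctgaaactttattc
The Aspn promoter held TATAAA at base -207 before the start and on the other strand at -178, and the Ogn promoter held overlapping matches at -229 and -227. That motif was present in 12.4% of 32851 promoters of this length. AGAACA, a single arm of the androgen response element, was present in 16.1% of all promoters and in none of these 3, and among the 7 members with a promoter in the table it was found only in Bgn, at -241. The full element, AGAACA and TGTTCT with any 3 bases between them, was present in 3 promoters of the table (0.00913%), none of a member. TGANTCA (6.75% of promoters) and CAGACA (17.1%) were present in no member promoter. The share of G and C bases was 30.0% in Aspn, 38.4% in Omd and 42.0% in Ogn, against a median of 52.4% over all promoters and 64.4% in Bgn. A motif match describes the letters of the window and is not a measured binding site.

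FPKM, the fragments of a gene scaled to its length and to the depth of the library, allows levels to be compared between genes. Decorin was the most abundant member in every group, with group means between 830 and 1470 FPKM. Lumican (152 to 289 FPKM) and biglycan (176 to 293 FPKM) followed, then asporin (44.1 to 178 FPKM), osteoglycin (44.1 to 111 FPKM) and Prelp (25.9 to 47.7 FPKM). Podocan (9.64 to 16.6 FPKM), osteomodulin (4.32 to 13 FPKM) and fibromodulin (3.35 to 5.92 FPKM) were low. Decorin alone made up 53.6% to 63.1% of the summed FPKM of the 9 genes in the group means. The sum was 2050 ± 124 FPKM in treatment, 2390 ± 391 in model and 1540 ± 298 in control skin at day 10 (SD, n = 4 each). At day 15 it was 1390 ± 328 FPKM in treatment, 2160 ± 411 in model and 1480 ± 142 in control skin. In bulk skin, more cells of a type and more RNA per cell cannot be told apart.

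**Figure D1:**
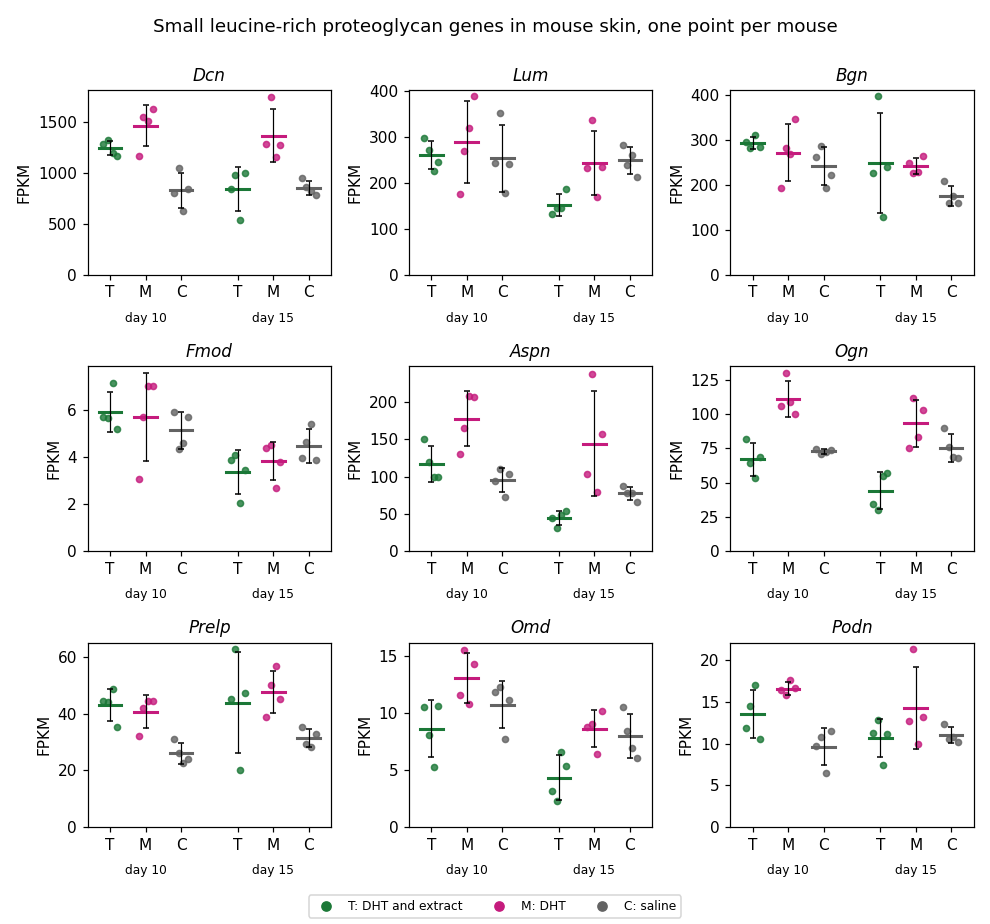
FPKM of each of the 9 genes in every mouse (points), with the group mean (line) and SD (bars, n = 4), for treatment (T), model (M) and control (C) skin at days 10 and 15. The 4 model points of Dcn lie above the 4 control points at each day, and the 4 treatment points of Aspn at day 15 (30.8 to 53 FPKM) lie below all other points of that gene.

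Depth was close among libraries, with 37000000 to 41100000 reads recovered per library. Across genes, the lowest correlation between libraries of a group was 0.928 in treatment and 0.943 in model skin at day 15. Treatment replicate 3 of day 15 stood apart in collagen, with 585 FPKM of Col1a1 against 1490 to 2280 FPKM in the other 3 mice of its group. Ddx3y, a Y-linked gene, was at 10.4 to 17.5 FPKM in 4 treatment libraries (replicate 3 of day 10 and replicates 1, 2 and 4 of day 15) and at 21.4 to 30.6 FPKM in the other 20. A panel of 5 kidney genes summed to 16.6 to 24.3 FPKM in the model and 24.2 to 27.9 FPKM in the control libraries of day 10, and to at most 0.0535 FPKM in any library of the other 4 groups. Comparisons of treatment with the others at day 10, and of days within model and control skin, therefore differ in this panel too. Model and control skin of day 10 also differed in it, with mean sums of 19.3 and 25.7 FPKM. The part of the panel in these results was not tested. Leaving its 5 genes out of the table changed no call of a member. They summed to at most 27.9 FPKM of column totals of 413117 to 455945, so that fit could hardly change a member's value. It leaves any other RNA from kidney in place and cannot decide the question.

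At day 10, DHT injection was compared with saline (model against control). Decorin, asporin, osteoglycin and podocan were higher in model skin, by 1.53 to 1.87 times in their mean FPKM. These 4 of 9 members stood against 6.79% of the 13039 tested genes that were higher (limma on log2(FPKM + 1), adjusted p under 0.05), and no member was lower. The median log2 difference was 0.60 over the members and -0.02 over all tested genes, and all 9 members had a positive difference.

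Decorin, the collagen-binding proteoglycan that also binds transforming growth factor beta, was at 1170, 1550, 1510 and 1630 FPKM in model and at 807, 1050, 629 and 837 FPKM in control skin. Every model library was above every control library. The log2 difference was 0.83 (SE 0.17, adjusted p = 0.00622), and it stayed called when any 1 library was left out (adjusted p at most 0.0313). Asporin, which competes with decorin for collagen, was at 131, 165, 209 and 207 FPKM in model and at 93.7, 110, 73 and 104 FPKM in control skin. The groups did not overlap, and the log2 difference was 0.89 (SE 0.25, adjusted p = 0.0272). Osteoglycin was at 106, 130, 109 and 100 FPKM in model and within 70.6 to 74.7 FPKM in control skin, a log2 difference of 0.60 (SE 0.17, adjusted p = 0.0284). Podocan was at 15.8 to 17.6 FPKM in model and 6.5 to 11.5 FPKM in control skin, without overlap, a log2 difference of 0.75 (SE 0.19, adjusted p = 0.0164).

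Leaving out 1 library ended some of these calls. Asporin was not called without model replicate 2, 3 or 4 or control replicate 1 or 3 (adjusted p = 0.0563 to 0.0988). Osteoglycin was not called without model replicate 2 or 3 or control replicate 1, 3 or 4 (0.0543 to 0.0941), and podocan not without replicate 3 of either group (0.0558 without the model one, 0.0703 without the control one). Prelp, which ties basement membranes to collagen, did not overlap either, at 32.2 to 44.4 FPKM in model and 22.6 to 31 FPKM in control skin, but its log2 difference of 0.63 was not called (SE 0.22, adjusted p = 0.0625). It was called, at an adjusted p of 0.0372, without model replicate 1. In all, 5 members had libraries that did not overlap, against 12.5% of tested genes in that direction.

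Lumican, biglycan, fibromodulin and osteomodulin overlapped between the groups at day 10. Lumican, the keratan sulfate proteoglycan needed for normal fibrils in cornea and skin, averaged 289 ± 89.1 FPKM in model and 254 ± 72.9 FPKM in control skin. Its log2 difference was 0.17 with a 95% interval of -0.29 to 0.64, which holds no change as well as a rise of the size of osteoglycin's. The intervals of biglycan (-0.31 to 0.63) and osteomodulin (-0.23 to 0.76) held both as well, while that of fibromodulin (-0.32 to 0.49) held no change and ended below osteoglycin's rise.

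At day 15, the same comparison called decorin alone, 1 of 9 members against 4.23% of tested genes that were higher. Decorin was at 1280, 1750, 1160 and 1270 FPKM in model and at 948, 857, 821 and 778 FPKM in control skin, again without overlap. The log2 difference was 0.67 (SE 0.17, adjusted p = 0.0227), and the call ended without model replicate 2 (adjusted p = 0.076) or control replicate 2, 3 or 4 (0.0541, 0.0665 and 0.0689). Asporin was at 103, 238, 79 and 158 FPKM in model and 87.8, 78.3, 77.4 and 66 FPKM in control skin. Model replicates 2 and 4 were far above the controls and replicate 3 was among them, and the log2 difference of 0.78 was not called (SE 0.25, adjusted p = 0.0528). Voom on recovered reads called it (adjusted p = 0.0431).

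Biglycan and Prelp joined decorin in having no overlap at day 15, so 3 members did, against 7.89% of tested genes in that direction. Biglycan, which can signal through Toll-like receptors, was at 227 to 265 FPKM in model and 159 to 208 FPKM in control skin (log2 difference 0.46, SE 0.23, adjusted p = 0.168). Prelp was at 38.9 to 56.6 FPKM in model and 28.2 to 35.1 FPKM in control skin (log2 difference 0.58, SE 0.22, adjusted p = 0.0883). Osteoglycin (0.29), podocan (0.30) and osteomodulin (0.11) had smaller positive log2 differences, and lumican (-0.07) and fibromodulin (-0.19) negative ones, all 5 with overlap and without a call. A change of the DHT difference between days was called by limma for 0 members, at unadjusted p-values of 0.112 to 0.879, and for 0 genes of the table (0%), and voom called 0 members.

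Markers of several cell types were called in the same comparisons. Over all tested genes, 6.79% were higher and 7.04% lower in model than in control skin at day 10, and 4.23% higher and 6.56% lower at day 15. Of 14 fibroblast markers, 1 (Cd34) was higher in model skin at day 10, a share near that of all genes, and 2 (Fbln1 and Pdgfrb) were higher at day 15. The call of Cd34 was lost in 1 of 8 fits without 1 library, and those of Fbln1 and Pdgfrb in 7 and 8 of 8. The summed FPKM of the list, which includes Col1a1 and Col1a2, ran over 4440 to 6470 in model and 2710 to 3940 in control libraries of day 10. At day 15 the sums were 4230 to 9040 FPKM in model and 3260 to 3940 FPKM in control libraries. Abundant genes weigh most in such a sum. The mean log2(FPKM + 1) of the 14 genes overlapped at day 10, at 5.84 to 6.26 in model and 5.47 to 5.91 in control libraries. At day 15 it did not overlap, at 5.69 to 6.1 in model and 5.57 to 5.64 in control libraries. Of 10 macrophage markers, 8 were higher at day 10 and 2 at day 15, with sums of 756 to 1090 FPKM in model and 321 to 423 FPKM in control libraries of day 10, and of 943 to 1800 FPKM in model and 483 to 834 FPKM in control libraries of day 15. Of 8 hair shaft keratins, 7 were lower at day 10 and 2 at day 15, and 2 and then 4 of 6 keratinocyte markers were lower. In fits without 1 library, macrophage calls were lost in 0 to 5 of 8 at day 10 and in 0 to 1 at day 15. Hair shaft calls were lost in 0 to 4 of 8 at day 10 and in 5 at day 15. Keratinocyte calls were lost in 6 of 8 at day 10 and in 0 to 6 at day 15. Of 5 markers of mammary and simple epithelium, 3 (Krt18, Elf5 and Csn3) were lower at day 10 and 2 (Elf5 and Csn3) at day 15. Their calls were lost in 0, 6 and 6 of 8 such fits at day 10 and in 5 and 0 at day 15. Of 6 endothelial markers, Vwf was higher at both days, and of 5 tested cartilage and tendon markers, Sox9 was lower at both days. The cartilage and tendon list as a whole did not fall, with median log2 differences of -0.07 at day 10 and 0.06 at day 15. Its mean sums were 115 FPKM in model and 84.6 FPKM in control skin at day 10. At day 15 they were 78.4 FPKM in model and 64.4 FPKM in control skin. The calls of Vwf at days 10 and 15 were lost in 0 and 1 of 8 such fits, and those of Sox9 in 4 and 3. No marker of any of these lists was at 0 in a whole group, and the part of cell composition in the members' differences was not tested.

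**Figure D2:**
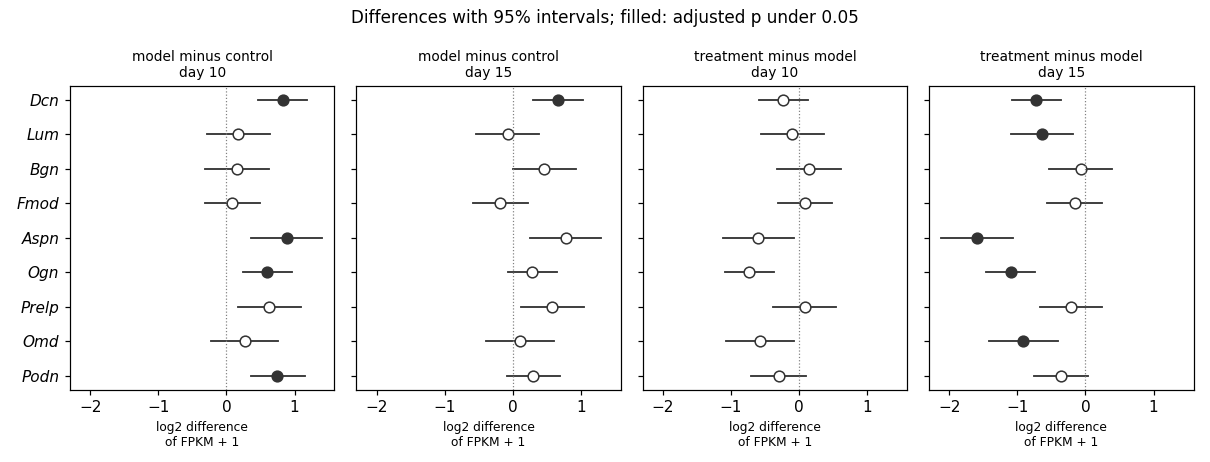
Differences of group means in log2(FPKM + 1) for the 9 genes in 4 comparisons, with 95% intervals, where filled points have an adjusted p under 0.05 over all tested genes. In model against control skin 4 genes are filled at day 10 and Dcn at day 15, and in treatment against model skin none is filled at day 10 and 5 lie below 0 at day 15, with Aspn lowest at -1.59.

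Treatment against model skin asks what the HLX extract did on top of DHT. At day 10, limma called no member, and 25 genes in all (0.192%). At an unadjusted p under 0.05 there were 3 members, the chromosome 13 neighbours, and voom also called no member. Osteoglycin was at 81.9, 64.1, 53 and 68.9 FPKM in treatment and at 106, 130, 109 and 100 FPKM in model skin. All treatment libraries were below all model libraries, the log2 difference was -0.73 (SE 0.17, adjusted p = 0.0949), and it was called without treatment replicate 1 (adjusted p = 0.0433). Osteomodulin did not overlap either, at 5.28 to 10.6 FPKM in treatment and 10.8 to 15.5 FPKM in model skin (log2 difference -0.58, SE 0.24, adjusted p = 0.401). These 2 members stood against 6.24% of tested genes whose treatment libraries were all lower.

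Asporin averaged 117 ± 24.4 FPKM in treatment and 178 ± 37.2 FPKM in model skin at day 10 (log2 difference -0.60, SE 0.25, adjusted p = 0.412), with treatment replicate 1 at 151 FPKM, inside the model range. Decorin was at 1280, 1320, 1200 and 1170 FPKM in treatment skin and overlapped the model libraries through model replicate 1, at 1170 FPKM. Its log2 difference was -0.23 with a 95% interval of -0.59 to 0.13. The other 5 members overlapped, with log2 differences between -0.30 (podocan) and 0.14 (biglycan).

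At day 15, asporin, osteoglycin, osteomodulin, decorin and lumican were lower in treatment than in model skin, with mean FPKM of 0.305 to 0.626 times that of model skin. The 5 of 9 members stood against 9.32% of tested genes that were lower, and no member was higher. The median log2 difference was -0.64 over the members and -0.02 over all tested genes. The estimate of the spread mattered here: with only these 8 libraries in the fit, 0 members and 0 genes of the table were called, and the 5 adjusted p-values were 0.134 to 0.173.

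Asporin was at 44.5, 30.8, 48.2 and 53 FPKM in treatment and at 103, 238, 79 and 158 FPKM in model skin. The treatment libraries lay close together and below every model library, and the log2 difference was -1.59 (SE 0.25, adjusted p = 0.000894). Osteoglycin, which takes part in collagen fibril assembly, was at 34.6, 30.2, 54.5 and 57 FPKM in treatment and at 75.2, 112, 83.1 and 103 FPKM in model skin. The groups did not overlap, and the log2 difference was -1.10 (SE 0.17, adjusted p = 0.000838). Osteomodulin, a tyrosine-sulfated member known mainly from bone, was at 3.11, 2.29, 6.55 and 5.34 FPKM in treatment and at 8.76, 9.06, 6.36 and 10.2 FPKM in model skin. Treatment replicate 3 passed model replicate 3 by a little, and the log2 difference was -0.91 (SE 0.24, adjusted p = 0.0131). Ecm2, the gene before Aspn on chromosome 13 and a relative of the family, had a log2 difference of -0.43 (SE 0.21) that was not called (adjusted p = 0.153).

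Decorin was at 841, 984, 539 and 1000 FPKM in treatment and at 1280, 1750, 1160 and 1270 FPKM in model skin. Every treatment library was lower, and the log2 difference was -0.72 (SE 0.17, adjusted p = 0.00875). Lumican was at 132, 146, 145 and 187 FPKM in treatment and at 232, 338, 169 and 235 FPKM in model skin. Treatment replicate 4 lay above model replicate 3, and the log2 difference of -0.64 passed narrowly (SE 0.22, adjusted p = 0.0476). Asporin, osteoglycin and decorin, the 3 members without overlap against 4.79% of tested genes in that direction, kept their calls without any 1 of the 8 libraries (adjusted p at most 0.00585, 0.00585 and 0.0353). Osteomodulin lost its call without treatment replicate 1 (adjusted p = 0.0523). Lumican lost its call in 6 of 8 such fits, those without treatment replicate 1, 2 or 3 or model replicate 1, 2 or 4 (adjusted p = 0.0631 to 0.16).

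Biglycan, Prelp, fibromodulin and podocan were not called at day 15, and the treatment mice differed widely in the first 2 of these. Biglycan was at 227, 397, 128 and 240 FPKM in treatment and at 227 to 265 FPKM in model skin, with 1 treatment mouse above and 1 below all model mice. Prelp was at 45.1, 62.9, 20.1 and 47.3 FPKM in treatment and at 38.9 to 56.6 FPKM in model skin, and the same 2 mice, replicates 2 and 3, were its highest and lowest. Their log2 differences were -0.07 (95% interval -0.54 to 0.39) and -0.21 (-0.67 to 0.25). Fibromodulin (-0.16, interval -0.57 to 0.24) and podocan (-0.36, interval -0.76 to 0.04) overlapped as well.

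Replicate 3 of treatment day 15, with its low collagen, was also the lowest of its group in decorin, biglycan, Prelp, podocan and fibromodulin, and the highest in osteomodulin. Without it, decorin differed by -0.52 from model skin, and asporin, osteoglycin and osteomodulin by -1.64, -1.21 and -1.11, all 4 still called. Without the 4 libraries of low Ddx3y, replicate 3 was the only treatment library of day 15, and its spread was assumed to be that of the other groups. That fit was added after the data were seen. Its log2 differences from model skin were -1.32 for decorin, -1.19 for Prelp, -1.44 for asporin and -0.74 for osteoglycin. They were -0.92 for biglycan, -0.80 for podocan, -0.33 for osteomodulin and -0.70 for lumican. These values rest on a single treatment mouse of day 15, the one with low collagen.

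Fibroblast markers summed to 1840 to 5700 FPKM in treatment and 4230 to 9040 FPKM in model libraries of day 15, and 1 of 14 (Cd34) was lower, a call lost in 5 of 8 fits without 1 library, against 9.32% of all tested genes. Macrophage markers summed to 352 to 1580 FPKM in treatment and 943 to 1800 FPKM in model libraries, with 2 of 10 (Mrc1 and Cd163) lower. All 8 hair shaft keratins were higher in treatment skin, against 10.3% of all tested genes, and there they summed to 4690 to 6400 FPKM against 2340 to 3890 FPKM in model skin. Rgs5 of the 6 mural markers was lower, against 9.32% of all tested genes. The mural list as a whole had a median log2 difference of 0.08. Its mean sums were 142 FPKM in treatment and 144 FPKM in model skin. The calls of Mrc1 and Cd163 were lost in 0 and 1 of 8 fits without 1 library, those of the keratins in 0 to 5 and that of Rgs5 in 3. None of the 6 adipocyte, 8 skeletal muscle, 6 keratinocyte, 6 endothelial, 5 mammary or 5 tested cartilage and tendon markers was called, and the part of cell composition was not tested.

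Against control skin, treatment skin showed a pattern that differed by gene and day. At day 10 limma and voom called no member, against 3.24% of tested genes in either direction with limma, and 3 members had an unadjusted p under 0.05. Decorin (log2 difference 0.60, SE 0.17, adjusted p = 0.0575) and Prelp (0.71, SE 0.22, adjusted p = 0.0715) were higher in every treatment library than in any control library, 2 members against 11.4% of tested genes in that direction. Prelp was at 35.2 to 48.6 FPKM in treatment and 22.6 to 31 FPKM in control skin. Decorin was called without control replicate 2 (adjusted p = 0.033).

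At day 15 decorin overlapped with control skin, at 539 to 1000 FPKM in treatment and 778 to 948 FPKM in control libraries (log2 difference -0.05, 95% interval -0.41 to 0.31). Osteoglycin was lower, at 30.2 to 57 FPKM in treatment and 67.7 to 90 FPKM in control skin, a log2 difference of -0.81 (SE 0.17, adjusted p = 0.0497). It was the 1 member called, against 0.284% of tested genes that were lower. That call was lost without treatment replicate 1 or 2 or any 1 of the 4 control replicates (adjusted p up to 0.24), and in 7 of 11 other settings. Asporin was at 30.8 to 53 FPKM in treatment and 66 to 87.8 FPKM in control skin, also without overlap (log2 difference -0.82, SE 0.25, adjusted p = 0.107). Lumican did not overlap either, at 132 to 187 FPKM in treatment and 214 to 283 FPKM in control skin (-0.71, SE 0.22, adjusted p = 0.108). These 3 members without overlap stood against 4% of tested genes in that direction. Without treatment replicate 3, 5 members were called: osteoglycin, asporin (adjusted p = 0.0337) and osteomodulin (0.00633) lower, and biglycan (0.0148) and Prelp (0.00293) higher. The share of all tested genes called in that fit is not given here. The 0.284% belongs to the fit of all libraries and is no background for these 5.

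Ordered by mean, decorin was highest in model skin of day 10, followed by model skin of day 15, treatment skin of day 10, control and treatment skin of day 15 and control skin of day 10. All libraries of the first 3 groups, at 1160 FPKM or more, lay above all libraries of the last 3, at 1050 FPKM or less, and neighbours within each trio overlapped. Asporin had model skin of days 10 and 15 at the top, then treatment and control skin of day 10, control skin of day 15 and, without overlap with any of these, treatment skin of day 15. Osteoglycin ran from model skin of days 10 and 15 through control skin of days 15 and 10 to treatment skin of days 10 and 15, and each group overlapped the next in that order. These orders are descriptions.

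Between days, no member was called in control skin (0 at an unadjusted p under 0.05) or in model skin (2 at an unadjusted p under 0.05, osteomodulin and fibromodulin, both negative), against 4.81% and 8.47% of tested genes in either direction. Voom also called none in either. In treatment skin 6 members were lower at day 15 than at day 10, against 7.53% of tested genes that were lower. They were asporin (log2 difference -1.39, adjusted p = 0.00393), osteomodulin (-0.89, 0.0248), lumican (-0.78, 0.0331), fibromodulin (-0.69, 0.0301), osteoglycin (-0.63, 0.0276) and decorin (-0.60, 0.0342). Decorin, lumican, fibromodulin and asporin did not overlap between days, 4 members against 9.57% of tested genes. Voom called 4, without decorin and fibromodulin, and leaving out 1 library left 1 to 6 of the calls, with asporin called in each. Leaving out treatment replicate 1, 2 or 4 of day 10, or replicate 1 of day 15, ended each of the other 5 calls (adjusted p = 0.0503 to 0.104).

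Whether the treatment against model difference changed between days was tested as an interaction, which called 13 genes (0.0997%) and 0 members with limma. Asporin came closest, with a change of -1 (SE 0.36, adjusted p = 0.216). The others had changes of -0.06 (podocan) to -0.54 (lumican), and 1 of 9 was under an unadjusted p of 0.05. Voom also called no member. The calls at day 15 and their absence at day 10 are therefore not shown to differ by this test.

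The balance of members within a library was followed as FPKM relative to decorin. Lumican was at 19 to 23.4% of decorin in treatment and 15.1 to 23.8% in model skin of day 10, against 28.3 to 33.8% in control skin. At day 15 it was at 14.8 to 26.9% in treatment, 14.5 to 19.3% in model and 27.5 to 31.8% in control skin. All 16 libraries of DHT-injected mice (14.5 to 26.9%) thus lay below all 8 control libraries (27.5 to 33.8%). This pair was singled out after the values were seen. At a single day a lower ratio to decorin was common: 67.2% of all tested genes at day 10 and 71.7% at day 15 were lower without overlap in model than in control skin, and 64.4% at day 10 in treatment than in control skin. At day 15, where decorin did not separate treatment from control skin, the share was 0.529%. Over both days together, of the 13038 tested genes other than decorin, 10 (0.0767%) had a ratio to decorin that was lower in all 16 libraries, lumican among them. Likewise 10 of 13038 genes (0.0767%) had a ratio to lumican that was higher in all 16, decorin among them. Lumican itself was called in neither comparison of model with control skin. The low ratio did not have the same make-up in every group. In treatment skin of day 15, mean decorin was 0.99 times that of control skin. Mean lumican there was 0.611 times that of control skin, without overlap but not called.

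Biglycan relative to decorin was at 21.3 to 26% in treatment, 16.4 to 21.2% in model and 26.5 to 32.6% in control skin of day 10. Model and treatment libraries lay below control libraries at that day, as did 67.2% and 64.4% of all genes relative to decorin, and treatment libraries lay above model libraries (5.55% of all genes). At day 15 it was at 23.7 to 40.3% in treatment, 13 to 20.9% in model and 18.6 to 22% in control skin. Treatment libraries of day 15 were all above model libraries, but so were 46.5% of all genes relative to decorin, which was itself lower. They were also above control libraries of that day (1.3% of all genes). Asporin relative to decorin averaged 5.66 ± 2.42% in treatment, 10.3 ± 3.35% in model and 9.07 ± 0.415% in control skin of day 15, and the treatment and model libraries overlapped through treatment replicate 3, at 8.95%. Osteoglycin relative to decorin averaged 5.4 ± 0.912% in treatment, 7.7 ± 1.27% in model and 9.08 ± 1.94% in control skin of day 10.

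**Figure D3:**
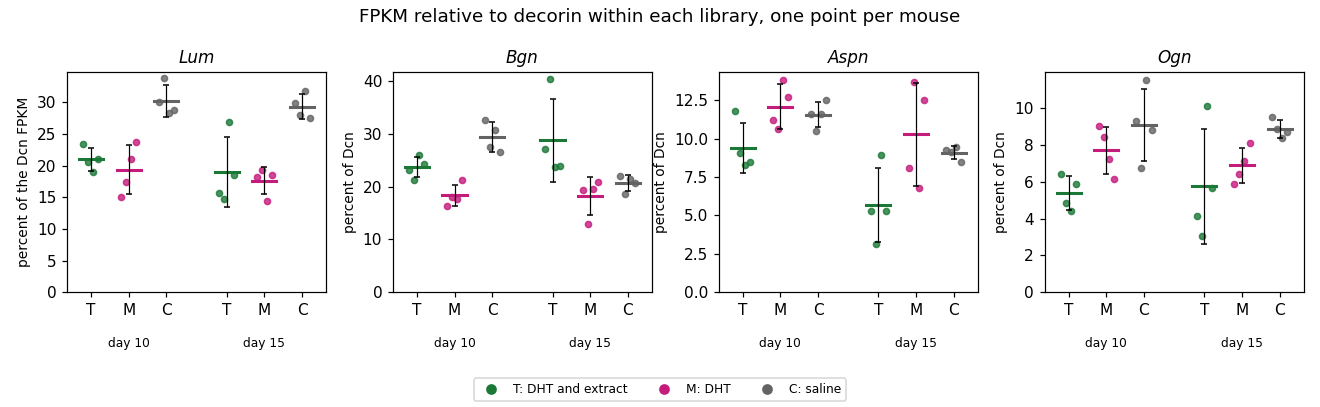
FPKM of Lum, Bgn, Aspn and Ogn as a percentage of the Dcn FPKM of the same library, for each mouse (points) with group mean (line) and SD (bars, n = 4), in treatment (T), model (M) and control (C) skin. For Lum, all 16 points of DHT-injected mice lie at 26.9% or lower and all 8 control points at 27.5% or higher.

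The fibrils that these proteins coat were compared as the summed FPKM of Col1a1, Col1a2 and Col3a1. The members summed to 29.2 ± 3.2 FPKM per 100 FPKM of these collagens in treatment, 31.9 ± 0.34 in model and 38.5 ± 5.3 in control skin at day 10 (SD, n = 4 each). Every treatment (24.6 to 31.8) and model (31.5 to 32.2) library of that day lay below every control library (32.5 to 45). The collagen sum itself was higher there, at 7050 ± 645 FPKM in treatment and 7500 ± 1290 FPKM in model against 4050 ± 827 FPKM in control skin. A ratio to it can therefore be lower without a fall of the members. The share of all genes with such a lower ratio was not computed. At day 15 the groups overlapped, with 29.3 ± 12.4 in treatment, 27.5 ± 3.03 in model and 35.8 ± 6.75 in control skin. Decorin per 100 FPKM of collagen was 17.7 ± 1.84 in treatment, 19.6 ± 0.797 in model and 20.6 ± 2.57 in control skin at day 10. At day 15 it was 17.4 ± 6.7 in treatment, 17.4 ± 1.98 in model and 20.6 ± 3.88 in control skin. The groups overlapped in decorin per collagen at both days, while the decorin level itself did not overlap between model and control skin.

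Some pairs of members varied together among mice of the same group, and others did not. Across the 24 libraries, after the group mean was subtracted, Pearson's r of log2(FPKM + 1) was 0.80 between osteoglycin and osteomodulin, 0.62 between asporin and osteoglycin and 0.56 between asporin and osteomodulin. Without treatment skin of day 15, over 20 libraries, these values were 0.68, 0.61 and 0.51. The chromosome 10 neighbours decorin and lumican had 0.74 over 24 and 0.93 over 20 libraries. Lumican and asporin, on different chromosomes, had 0.80 and 0.84. Decorin had 0.01 with osteoglycin and 0.05 with osteomodulin over 24 libraries, and 0.38 and 0.53 over 20. Biglycan and asporin had 0.01 and 0.40. Biglycan and Prelp had 0.82 over 24 libraries but 0.52 over 20, and Prelp and osteomodulin -0.47 but -0.09. The negative values between biglycan or Prelp and the chromosome 13 genes came with the spread of treatment skin at day 15, where replicate 2 was highest in biglycan and Prelp and lowest in asporin, osteoglycin and osteomodulin. Points share the depth and RNA composition of their library, and the values are descriptions. The usual r between other pairs of tested genes is not given here, so the values are not shown to be particular to the family.

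**Figure D4:**
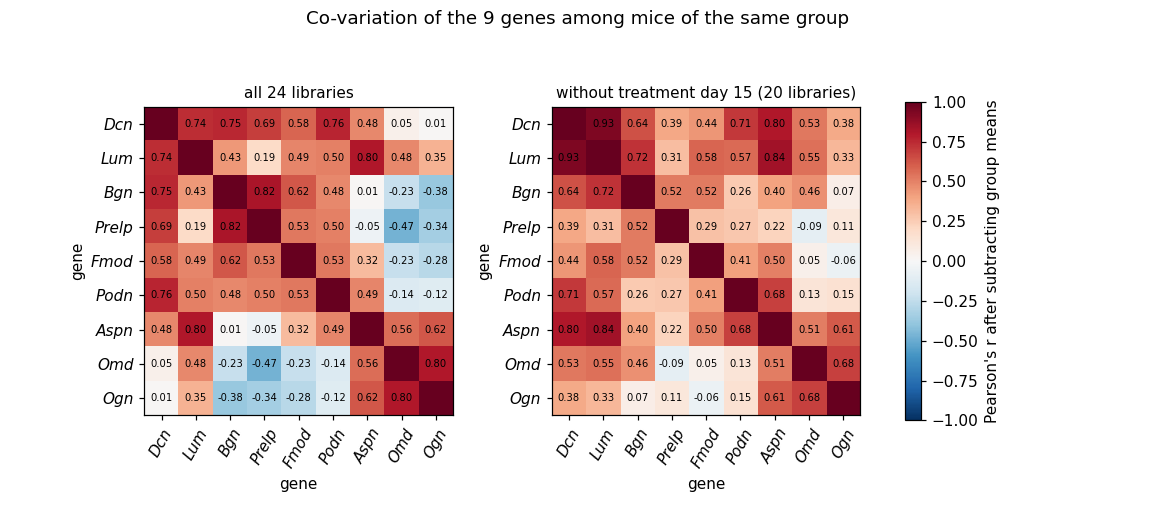
Pearson's r between pairs of the 9 genes over log2(FPKM + 1) after subtracting the group mean, in all 24 libraries (left) and in the 20 without treatment skin of day 15 (right), with colour from -1 (blue) to 1 (red) and the diagonal at 1 by definition. Bgn and Prelp stand opposite Omd and Ogn on the left (down to -0.47) and near 0 or above for most of these pairs on the right.

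By the same measure over 24 libraries, up to 3 of the non-members most like each gene were named. These are the highest values among all tested genes. They include the wide treatment group of day 15 and were not computed without it. Decorin was followed most closely by Tlcd2, Rnase4 and Ccl21a (r = 0.94 each), and lumican by Tceal8 (0.92), Sptssa and Eid1 (0.91 each). Biglycan was followed by Fbln2 and Srpx2 (0.93 each) and Cd276 (0.92), and Prelp by Scpep1 (0.95), Sh3pxd2b (0.93) and Tgfbr2 (0.92). Asporin was followed by Pgrmc1 (0.91), Shox2 (0.89) and Skint6 (0.88), osteoglycin by Bet1 (0.85) and Sepsecs (0.84), and osteomodulin by Zfp229 (0.93), Zfp944 (0.90) and Etfrf1 (0.89). Podocan was followed by Mxra7 and Cyp2f2 (0.92 each) and Tns1 (0.91), and fibromodulin by Krt79 and Sec31a (0.82 each) and Cidea (0.81). For 4 members (lumican, asporin, osteoglycin and osteomodulin) the 100 most similar genes held 1 other member, and for the other 5 none.

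Genes that act on or with the family were read against the shares of all tested genes: 6.79% higher and 7.04% lower in model than in control skin at day 10, 4.23% and 6.56% at day 15, and 10.3% higher and 9.32% lower in treatment than in model skin at day 15. Of 22 genes of linker, chondroitin and dermatan sulfate synthesis, which build the sugar chains, 19 were tested, and 4 were higher in model than in control skin at day 10 and 0 at day 15. They were Ust, which sulfates uronic acid (7.43 ± 0.696 FPKM in model and 3.83 ± 0.546 FPKM in control skin, SD, n = 4 each, adjusted p = 0.00247), the xylosyltransferase Xylt2, the dermatan sulfate epimerase Dse and Csgalnact2. At day 15, 4 were lower in treatment than in model skin: Csgalnact2 (10.9 ± 1.92 FPKM in treatment and 16.9 ± 1.07 FPKM in model skin, adjusted p = 0.00171), Dse, Dsel, a second epimerase gene, and Ust. Ust at day 10 and Csgalnact2 and Dse at day 15 kept their calls without any 1 library. Xylt2, Dse and Csgalnact2 at day 10 lost theirs in 4, 8 and 6 of 8 such fits, and Dsel and Ust at day 15 in 5 and 4. Of 9 keratan sulfate and tyrosine sulfation genes 6 were tested, and Tpst1, a tyrosylprotein sulfotransferase, was higher in model skin at day 10 (lost in 6 of 8 fits) and B4galt1 lower in treatment skin at day 15 (lost in 3 of 8).

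Of 12 collagens that the family binds, 11 were tested, and Col3a1 and Col5a2 were higher in model than in control skin at both days. Col3a1 averaged 2700 ± 502 FPKM in model and 1330 ± 267 FPKM in control skin at day 10, and 2900 ± 676 FPKM in model and 1320 ± 143 FPKM in control skin at day 15 (SD, n = 4 each). Its calls were lost in 6 and 4 of the 8 fits without 1 library, and those of Col5a2 in 5 of 8 at day 10 and 0 of 8 at day 15. No collagen was called between treatment and model skin at day 15, where Col1a1 had a log2 difference of -0.65 (SE 0.31, adjusted p = 0.137).

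Of 15 proteases that cleave members of the family 14 were tested. Cathepsin K (Ctsk), Mmp14 and Bmp1, the procollagen C-proteinase that also matures biglycan, were higher in model than in control skin at both days, with Adamts9 added at day 15. Ctsk averaged 507 ± 106 FPKM in model and 228 ± 89 FPKM in control skin at day 10. At day 15, Ctsk (232 ± 90.2 FPKM in treatment and 539 ± 241 FPKM in model skin, adjusted p = 0.0116), Mmp14 and Adamts9 were lower in treatment skin. The fall of Ctsk stayed called without any 1 library, and those of Mmp14 and Adamts9 were each lost in 3 of 8 fits. In model against control skin each of these calls was lost in 4 to 7 of 8 fits.

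Of 17 receptors and growth factors bound by the family 16 were tested. Tgfb2, a ligand that decorin and biglycan bind, was higher in model skin at day 10 (6.3 ± 0.571 FPKM in model and 4 ± 0.414 FPKM in control skin, adjusted p = 0.0084). It was lower in treatment skin at day 15 (3.62 ± 0.544 FPKM in treatment and 5.71 ± 1.31 FPKM in model skin, adjusted p = 0.00648), and both calls held without any 1 library. Egfr, a receptor of decorin, was higher in model skin at both days, Lrp1 at day 10 and Tgfb3 and Tlr4 at day 15, and Bmp2 was lower at both days, calls that were each lost in 2 to 7 of 8 fits without 1 library. The 2 of 16 that were lower in treatment skin are near the share of all genes. Tlr4, a receptor of biglycan, was lower in treatment than in model skin at day 15 (log2 difference -0.93, SE 0.24, adjusted p = 0.0129) and held without any 1 library. Of 25 genes listed as other proteoglycans 18 were tested. Sdc1, an epithelial syndecan, was lower in model than in control skin at both days and higher in treatment than in model skin at day 15. It went opposite to decorin in both comparisons, and its day 15 rise was lost in 3 of 8 fits. Prg4, which encodes lubricin, and Sdc3 were higher and Gpc4 and Gpc1 lower in model skin at day 10, and Tgfbr3 was higher and Gpc4 lower at day 15. Each of these calls was lost in 1 to 6 of 8 fits. Gpc1 was higher and Tgfbr3 lower in treatment than in model skin at day 15, calls lost in 0 and 5 of 8 fits. Bcam, a cell adhesion gene on this list that does not encode a proteoglycan, was also higher there, a call lost in 1 of 8. Of 9 other small leucine-rich proteoglycans and relatives 3 were tested (Ecm2, Kera and Tsku) and none was called in these comparisons.

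In treatment against model skin at day 10, no gene of these 7 lists was called. As with the members, 0 of the listed genes called at day 15 between treatment and model skin were called when only those 8 libraries were fitted.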

How the data were processed

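RNA was extracted from skin and sequenced as poly(A) libraries, per the labels' protocols, and reads were trimmed with fastp, aligned with HISAT2 to GRCm39 and counted per gene with HTSeq, per the submitters' processing notes (versions are not given in the sources used here). The authors deposited FPKM values in 1 table of 24 columns, all of which were used and 0 columns left out, and whose totals ran from 413117 to 455945. Groups and replicate numbers came from the sample titles.

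Tests were run on log2(FPKM + 1), with a pseudocount of 1, for the 13039 genes that reached 1 FPKM in 4 or more libraries (5853 removed). One mean per group (6 groups, 18 residual degrees of freedom) was fitted with limma 3.58.1 in R 4.3.3 (trend and robust, two-sided), and p-values were adjusted by Benjamini-Hochberg over all tested genes of a comparison, with a threshold of 0.05. Log2 differences on this scale understate changes of low genes. Intervals are at 95%. Sequencing depth was read from the steps of the values: 18714 of 18715 genes above 0 came out as whole reads in every library within 0.02 of a read, with 37000000 to 41100000 reads per library. Limma's voom on those reads, with trimmed-mean-of-M-values factors, was an alternative and called 1713, 1262, 15 and 2806 genes in model against control skin at days 10 and 15 and in treatment against model skin at days 10 and 15. Reads carry no molecular identifiers, and precision was taken from the spread between mice.

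All 9 members are named. Of the gene lists, genes called between model and control or treatment and model skin are named, at most 4 per list and direction by smallest p. A few results that these rules would name are not reported here. The members, the lists and the tests were chosen with earlier results of these data known, and comparisons share the model or control libraries. The other settings tried were each library left out in turn, the replicate number as a block, array weights, a fit of only the groups in a comparison, scaling by medians of ratios or to equal column totals, a filter on a mean FPKM of 5, every gene above 0 without a filter, and a pseudocount of 0.1. The fits without the 4 libraries of low Ddx3y (under 20 FPKM) and without the kidney genes were added after the data were seen.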

Additional observations from a re-analysis of the deposited data

Results flagged for a closer look

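A signal of genes outside the skin measurement appeared in the libraries of day 10. The kidney panel (Kap, Umod, Slc12a1, Slc34a1 and Slc22a6) reached a summed 27.9 FPKM in the highest control library of that day. It summed to at most 0.015 FPKM in treatment, to 16.6 to 24.3 FPKM in model and to 24.2 to 27.9 FPKM in control libraries of day 10. In control libraries of day 15 it was at most 0.0492 FPKM. Model and control skin of day 10 both carried it, at unequal mean sums of 19.3 and 25.7 FPKM. Its part in the differences of the 9 genes was not tested. Among the 54 sets of 4 values (9 genes in 6 groups), 0 held a library far from the other 3 by Dixon's criterion, which chance meets in about 1 of 20 sets.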

How the results depend on the processing

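The 9 genes were followed through 1969 combinations of comparison and setting. In 1790 the direction and the side of the threshold were those reported, in 81 a call was lost, in 50 one was gained and in 48 an uncalled difference changed sign. Log2 values rest on 4 mice a group, and 2 groups of day 15 were wider than the others. The fit of all 6 groups gives every group 1 common spread.

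Numbers of called members moved as follows. In model against control skin at day 15 (1 reported), 2 were called with a mean FPKM of at least 5, with median-of-ratios scaling, with a common total and by voom, 3 with only both groups fitted and 5 with array weights. In treatment against model skin, array weights called 3 at day 10 (0 reported), and only both groups fitted called 0 at day 15 (5 reported). In treatment against control skin at day 10 (0 reported), a common total called 1, only both groups 2, array weights 3 and the fit without low Ddx3y 2. At day 15 (1 reported), 0 were called without a filter, with a filter on a mean FPKM of 5, with a pseudocount of 0.1, a common total or only both groups. Array weights called 6 there. The share of all tested genes called with array weights in that comparison is not given here. Between days, array weights called 1 in control and 1 in model skin (0 reported in each). In treatment skin, only both groups fitted called 2 (6 reported). In the change of treatment minus model, array weights called 1 (0 reported). Leaving out 1 library gave 1 to 5 called members in model against control skin at day 10 and 0 to 2 at day 15, 0 to 1 and 3 to 5 in treatment against model skin, 0 to 1 and 0 to 5 in treatment against control skin, 0 to 1 between days in model and 1 to 6 in treatment skin. The cause was not tested.

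The replicate numbers were tried as a block. Same-numbered libraries did not deviate together in a regular way (r = -0.63 to 0.51, over 0.1 in 8 of 24 such pairs of libraries). The numbers were therefore not taken to pair mice. Pairs of libraries with different numbers were not set beside them. With the replicate block 1 member was called in treatment against control skin at day 10 and 0 at day 15, against 0 and 1 reported, and no other call of a member changed.

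Signs that turned belonged to uncalled values. With array weights they were Fmod at -0.06 in treatment minus model at day 10, Prelp at 0.04 in it at day 15, Dcn at 0.12 and Podn at 0.05 in treatment minus control at day 15, Lum at -0.01 and Prelp at 0.1 between days in control and treatment skin, Aspn at 0.05 and Omd at 0.02 in the change of model minus control, and Prelp at 0.01 and Podn at 0.05 in that of treatment minus model. Lum between days in control skin was -0.02 with a common total, and Dcn in model skin 0.01 with median-of-ratios scaling. Without low Ddx3y, Bgn was at -0.45 and Prelp at -0.61 in treatment minus control at day 15, and Omd at 0.06 in the change of treatment minus model. Leaving out 1 library gave these ranges across 0. In model minus control they were Fmod -0.02 to 0.31 at day 10, Lum -0.24 to 0.09 and Omd 0 to 0.23 at day 15. In treatment minus model they were Lum -0.31 to 0.07, Bgn -0.02 to 0.27, Fmod -0.13 to 0.19 and Prelp -0.02 to 0.17 at day 10, and Bgn -0.34 to 0.21, Fmod -0.29 to 0 and Prelp -0.42 to 0.12 at day 15. In treatment minus control they were Lum -0.08 to 0.25 at day 10, Dcn -0.15 to 0.15 and Podn -0.14 to 0.1 at day 15. Between days they were Dcn -0.07 to 0.17, Lum -0.14 to 0.18 and Ogn -0.04 to 0.09 in control and Prelp -0.28 to 0.26 in treatment skin. In the changes they were Aspn -0.39 to 0.13 and Prelp -0.15 to 0.04 for model minus control, and Bgn -0.48 to 0.07, Prelp -0.5 to 0.03 and Podn -0.2 to 0.14 for treatment minus model.

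Over all tested genes, a common total per library turned the balance of higher and lower calls. It was 885 higher and 918 lower as reported and 1047 and 614 with a common total for model against control skin at day 10, 552 and 856 against 743 and 473 at day 15, and 1348 and 1215 against 677 and 1658 for treatment against model skin at day 15. Array weights called 4927 genes (1803 reported) and 4592 (1408) in model against control skin at days 10 and 15 and 1502 (25) in treatment against model skin at day 10. With only both groups fitted, 724 (1408) genes were called in model against control skin at day 15, and 2229 (423) and 0 (41) in treatment against control skin at days 10 and 15. Of the calls on listed genes and cell markers, these settings other than single libraries ended 0 to 7 of 42 in model against control skin at day 10, 0 to 10 of 27 at day 15, and in treatment against model skin at day 15 all 27 with only both groups fitted, 11 without low Ddx3y and 0 to 7 otherwise.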
